A study of Drosophila melanogaster with 2 samples.

Results

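The genes described here encode the proteins of the cytoplasmic ribosome in Drosophila melanogaster. They were chosen by symbol, as protein-coding genes named RpL or RpS with a number, together with RpLP0, RpLP1, RpLP2 and sta, and without RpLP0-like. The rule found 92 genes among the 13968 protein-coding genes on the main chromosome arms, 53 of the large subunit and 39 of the small subunit. Anti-GFP chromatin immunoprecipitation and sequencing (ChIP-seq) had been done on whole embryos aged 0 to 24 h from a transgenic strain carrying CG8478 fused to eGFP. The series has 1 group, with 2 biological replicates, and no second genotype, treatment or stage. The assay reads the tagged protein through an antibody to its tag, and whole embryos pool all cell types and all stages of the collection, so binding in a few cells and weak binding in many cannot be told apart. A control experiment named in the labels was not analysed here.

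Ribosomal protein genes are among the most strongly transcribed genes of a growing cell, and their products are made in balanced amounts for the assembly of the large and small subunits. Flies with only 1 working copy of such a gene often show the Minute phenotype of slow growth and short bristles. In Drosophila, the promoters of these genes typically start transcription at a pyrimidine-rich TCT initiator in place of the common initiator, with the TBP-related factor TRF2 in place of TBP. The DNA replication-related element (DRE), bound by the factor DREF, is another well-known element of Drosophila housekeeping promoters, and the insulator protein BEAF-32 binds clusters of the related letters CGATA.

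The sequences at the start sites of 12 genes show the letters on which the results turn. Each runs 5' to 3' on the gene's own strand from 120 bp before to 20 bp after the start site shared by most transcripts, which makes 141 bases, and was read from the RefSeq Release 6 genome (dm6). Capitals mark the DRE core ATCGAT and a TCT initiator core CTTT that begins within 5 bp of the start site. RpL32, RpS2, RpS7 and RpS30 are shown as 4 of the genes with the strongest peaks, each nearest to the gene's own start site. They lie at chr3R:30046120-30046260, minus strand, chr2L:9897501-9897641, minus strand, chr3R:30209000-30209140, minus strand, and chr3R:20850396-20850536, plus strand.
RpL32: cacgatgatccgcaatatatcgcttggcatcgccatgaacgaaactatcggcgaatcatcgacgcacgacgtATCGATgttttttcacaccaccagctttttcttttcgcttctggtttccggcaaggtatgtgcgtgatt
RpS2: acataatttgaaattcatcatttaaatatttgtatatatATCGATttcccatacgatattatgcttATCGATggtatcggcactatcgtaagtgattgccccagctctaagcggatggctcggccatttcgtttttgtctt
RpS7: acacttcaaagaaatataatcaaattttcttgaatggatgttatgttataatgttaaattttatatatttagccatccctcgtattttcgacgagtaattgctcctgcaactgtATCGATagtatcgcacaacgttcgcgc
RpS30: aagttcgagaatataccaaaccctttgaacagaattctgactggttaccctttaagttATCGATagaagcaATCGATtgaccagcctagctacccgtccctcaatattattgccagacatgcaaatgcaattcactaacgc

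The RpL10A, RpS10 and RpS14 copies are shown because the copies of a protein differed in these letters. RpL10Ab and RpL10Aa lie at chr3L:11822731-11822871, plus strand and chr3R:15037246-15037386, plus strand. RpS10b and RpS10a lie at chrX:19597920-19598060, plus strand and chr3R:27652640-27652780, plus strand. RpS14a and RpS14b lie at chrX:7933622-7933762, plus strand and chrX:7934778-7934918, plus strand.
RpL10Ab: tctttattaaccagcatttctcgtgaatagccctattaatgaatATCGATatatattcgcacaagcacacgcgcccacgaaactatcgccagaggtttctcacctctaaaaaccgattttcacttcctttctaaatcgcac
RpL10Aa: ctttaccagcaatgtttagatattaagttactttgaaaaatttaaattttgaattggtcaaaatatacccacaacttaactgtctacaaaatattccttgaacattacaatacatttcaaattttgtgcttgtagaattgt
RpS10b: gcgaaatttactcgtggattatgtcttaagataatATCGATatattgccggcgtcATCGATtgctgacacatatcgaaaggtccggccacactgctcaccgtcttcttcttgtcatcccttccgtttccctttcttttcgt
RpS10a: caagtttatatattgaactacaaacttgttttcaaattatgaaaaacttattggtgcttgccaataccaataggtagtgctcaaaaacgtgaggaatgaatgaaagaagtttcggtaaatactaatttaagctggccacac
RpS14a: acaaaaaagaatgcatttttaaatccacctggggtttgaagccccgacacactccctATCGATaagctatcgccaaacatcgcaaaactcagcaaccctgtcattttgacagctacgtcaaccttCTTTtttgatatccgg
RpS14b: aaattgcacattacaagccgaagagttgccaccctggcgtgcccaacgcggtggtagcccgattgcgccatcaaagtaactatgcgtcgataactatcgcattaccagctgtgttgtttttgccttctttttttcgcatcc

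RpS3, at chr3R:23358692-23358832, plus strand, and RpL4, at chr3R:27922701-27922841, plus strand, are shown as genes that hold a TCT initiator and no DRE core. Neither had a summit of the authors' conservative peak list within 500 bp of a start site.
RpS3: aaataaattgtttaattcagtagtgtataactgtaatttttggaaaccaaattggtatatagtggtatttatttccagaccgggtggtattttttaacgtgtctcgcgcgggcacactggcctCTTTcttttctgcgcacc
RpL4: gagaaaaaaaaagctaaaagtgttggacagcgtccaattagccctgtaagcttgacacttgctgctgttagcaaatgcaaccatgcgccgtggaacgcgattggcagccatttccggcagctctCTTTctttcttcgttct

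CG8478-eGFP was found at the promoters of 50 of the 92 genes (54.3%, 95% Wilson interval 44.2 to 64.1), against 22.6% of all protein-coding genes. A gene is called bound where the summit of a peak, its highest point, lies within 500 bp of any annotated start site in the authors' conservative list. That list was made from both replicates and holds peaks that pass the authors' threshold on the irreproducible discovery rate (IDR), a measure of how well a peak's rank repeats between replicates. The intervals cover the counting error of genes only, and the read depth is unknown, since peak lists hold no read counts. The 50 genes had 50 separate peaks. In the larger optimal list 52 of 92 were bound, against 23.5% of all protein-coding genes. In replicate 1's own list 44 were bound, against 19.5%, and in replicate 2's own list 48, against 18.8%. All 4 lists agreed on 42 bound genes.

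Genes for proteins that assemble the ribosome or serve the mitochondrial ribosome were also often bound. Of 29 ribosome biogenesis genes, among them those for fibrillarin, bystin and RNA polymerase I subunits, 16 were bound (55.2%, 37.5 to 71.6). Of 73 mitochondrial ribosomal protein genes 32 were bound (43.8%, 33.0 to 55.2), and the intervals of all 3 groups overlap.

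The shares of the large and small subunit genes that were bound did not differ beyond counting error, with an interval that also allows sizeable differences. Of the large subunit genes 28 of 53 were bound (52.8%, 39.7 to 65.6) and of the small subunit genes 22 of 39 (56.4%, 41.0 to 70.7). The difference of large minus small was -3.58 percentage points (95% Newcombe interval -23.0 to 16.5). In the upper 50% of peaks by signal it was -14.8 points (-33.6 to 5.28), with 34.0% of large and 48.7% of small subunit genes bound.

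**Figure D1:**
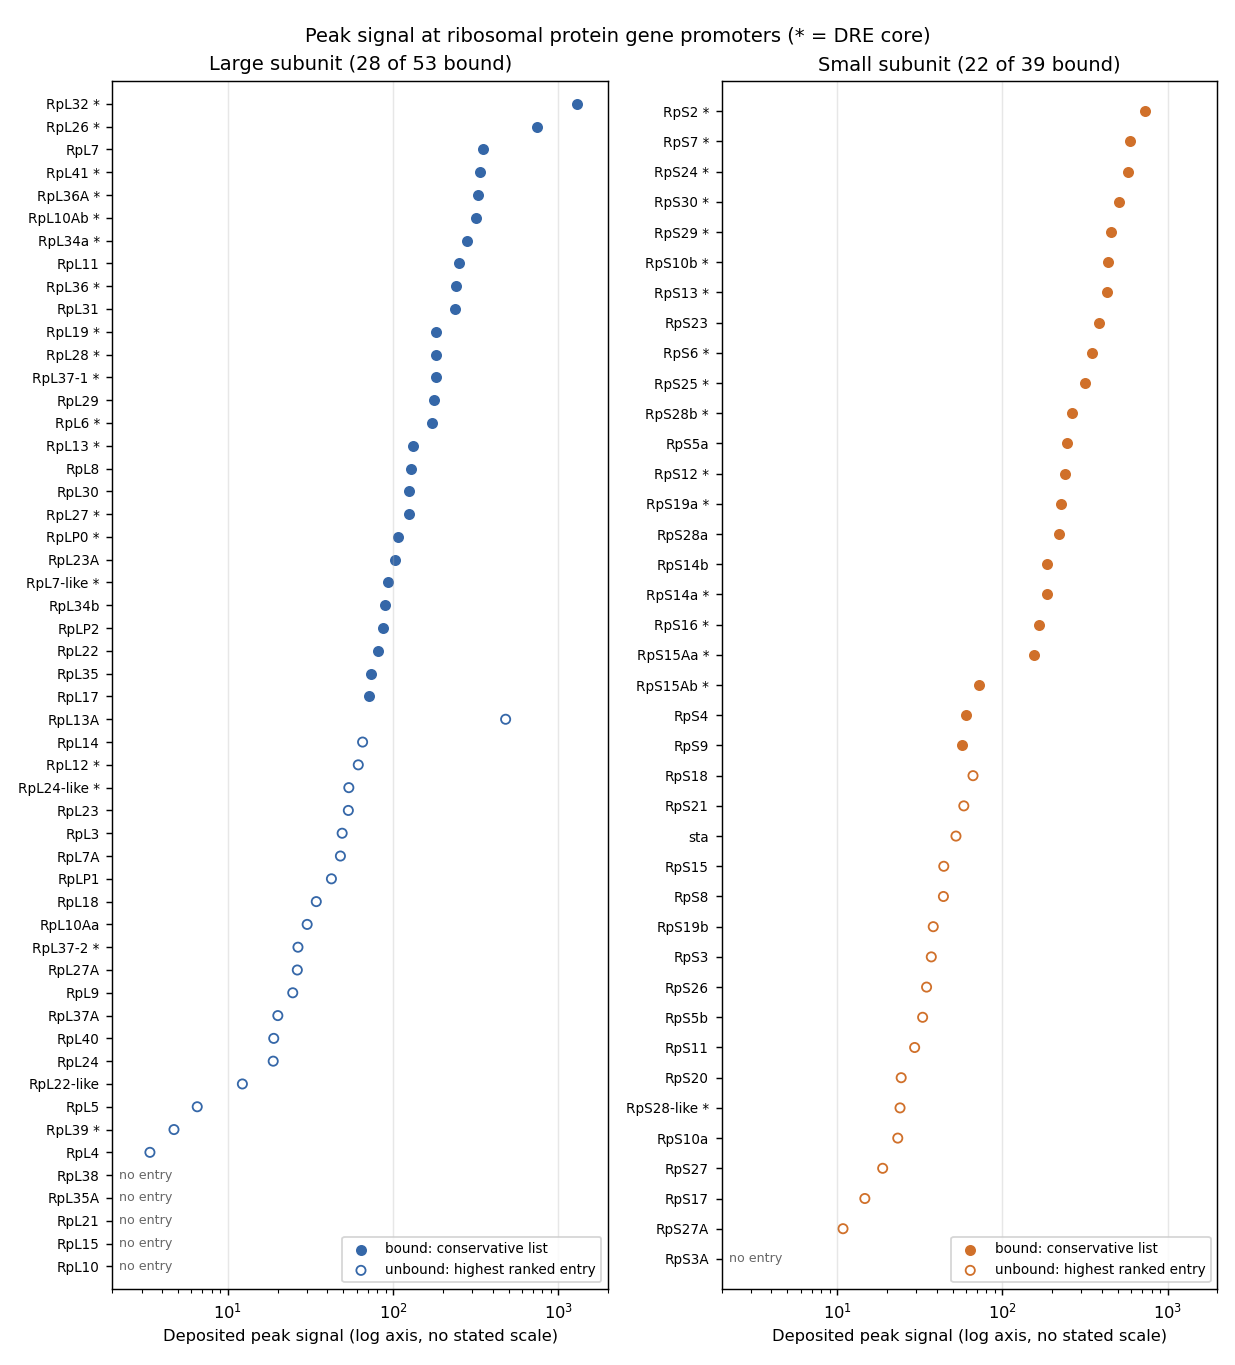
Deposited peak signal (log axis, no stated scale) of the large subunit genes (left, without 1 gene that is not reported) and small subunit gene (right). Filled points are peaks of the conservative list, open points the highest entry of the ranked list at unbound genes, and a star marks a promoter with a DRE core. RpL32 lies highest at 1288, and the open point of RpL13A at 479 stands far above those of the other unbound genes.

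Where it was found, the protein's peaks were mostly above the median of all promoter peaks. The deposited signal of a peak is the authors' own value and has no stated scale, so it is used only within a list. Its median over the 50 bound genes was 222 (range 57.1 to 1288), against 144 over all 2411 promoter peaks of protein-coding genes. Counted by gene, as for the 50, the median over all 3152 bound protein-coding genes was 166. Of the 50 genes, 35 had a peak in the upper 50% and 19 in the upper 25% of those promoter peaks. The median was 179 over the 28 large subunit genes and 255 over the 22 small subunit genes, and their ranges (71.1 to 1288 and 57.1 to 733) overlap nearly throughout. The 32 bound mitochondrial ribosomal protein genes had a median of 144 (54.5 to 667).

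RpL32, a large subunit gene known in fly work as the reference transcript rp49, had the strongest peak of the group, and only 2 promoter peaks of any protein-coding gene ranked above it. Its peak spans chr3R:30046051-30046477 with a signal of 1288. The ranked list compares the replicates and gives the signal of each as an input, and at RpL32 these were 606 in replicate 1 and 686 in replicate 2. The summit lay 71 bp upstream of the nearest annotated start site. The sequence above is drawn on the start site shared by most transcripts, and its DRE core begins 48 bp upstream of that one. The centre of the core lay 46.5 bp downstream of the summit.

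RpL26, whose product sits near the exit of the nascent peptide tunnel, followed at 743, with inputs of 358 and 379. Its summit lay in its own intron, 94 bp downstream of the nearest start site.

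Of the 10 strongest, 7 were small subunit genes. RpS2, at the entry of the mRNA channel, had a signal of 733 with inputs of 378 and 371. Its summit lay 30 bp upstream of the nearest start site, which is not the one used for its sequence. RpS7 had 589 (313 and 254) and RpS30 had 505 (250 and 253), with summits 25 and 8 bp upstream. Positions in the sequences above are from the start site shared by most transcripts. The DRE core nearest to it begins 54 bp upstream in RpS2, 6 bp in RpS7 and 49 bp in RpS30.

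RpS24 had 574 (272 and 309), and RpS10b, a protein of the small subunit head, had 435 (252 and 170). RpS29 differed most between the replicates among the 10, with 167 in replicate 1 and 280 in replicate 2 at a signal of 452. RpS13 had 430.1 (223 and 213), at a summit shared with CSN8. In all 10 genes the replicates' inputs lay within 2-fold of each other.

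The 5 weakest bound genes had signals from 57.1 to 73.7. RpL35 (73.7) and RpL17 (71.1), both near the peptide tunnel, had inputs of 45.8 and 38.7 and of 45.0 and 37.2. RpS15Ab had 71.7 (41.7 and 30.9). RpS4 (60.1, with inputs of 30.3 and 29.4) and RpS9 (57.1, with 30.8 and 26.8) were in neither the optimal list nor either replicate's own list.

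The threshold itself is on the IDR. On the -log10 scale of the ranked list, where a higher value means a better repeated rank, the lowest entry of the conservative list was at 2.00. The members just inside it were RpL22 at 2.17 and RpS9 at 2.23, and those just outside were RpL23 at 1.98 and RpL24-like at 1.87. By distance, the farthest bound summits were those of RpLP2 (468 bp) and RpS19a (462 bp). Just outside lay RpL27A, with a summit 511 bp upstream and a signal of 111, and RpL4, with one 602 bp downstream and a signal of 61.4.

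The 42 unbound genes had low entries or none at their start sites in the ranked list, except RpL13A. The ranked list also holds weak, mostly unrepeated enrichment, and 36 of the 42 had an entry within 500 bp, at a median of 31.5, against 26.5 over 7462 unbound protein-coding genes with an entry. RpL13A stood out at 479, with inputs of 259 and 218 and a -log10 IDR of 5.0, which is past the threshold, but neither the conservative nor the optimal list used here has an entry at its start site. By the rule it is unbound, and counting it would give 51 of 92. The ranked entry lay at -252 bp from the RpL13A start site, where negative is upstream. The divergent gene Dph4 also starts within 500 bp of that start site. In all, 105 of the 3009 ranked intervals past the threshold have no match in the conservative list.

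After RpL13A came RpS18 (66.3, with inputs of 22.7 and 34.6), RpL14 (65.3, with 20.4 and 32.0), RpL12 (61.5, with 23.0 and 28.6) and RpS21 (58.4, with 41.9 and 14.1). RpS21 differed between the replicates by over 2-fold, and the other 3 were higher in replicate 2. RpL14, RpL24-like, sta and RpLP1, unbound in the conservative list, were bound in the optimal list. Replicate 2's own list had a summit at RpL23, RpL27A and sta, and replicate 1's own list at none of the 42. RpL10, RpL15, RpL21, RpL35A, RpL38 and RpS3A had no entry at all within 500 bp.

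The ribosomal stalk, which recruits translation factors, was split. RpLP0, its base, was bound at 106 (inputs 44.1 and 57.4) with a summit 6 bp upstream of the start site. RpLP2 was bound at 86.6 (53.9 and 30.1) but only through a summit 468 bp upstream, and RpLP1 was unbound, with a ranked entry of 42.3 (22.9 and 24.1). The gene sta, for the small subunit protein RpSA, was unbound at 52.3 (20.9 and 46.5).

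The following genes are among the 55 with no DRE core in the promoter, of which 18 were bound (32.7%). RpS3, which lines the mRNA entry channel, had a ranked entry of 37.1 (16.9 and 11.9), and RpL3, near the peptidyl transferase centre, had 49.1 (41.3 and 19.3). RpL4, which lines the peptide tunnel, had 3.37 (3.59 and 10.1), and RpL5, a partner of the 5S rRNA, had 6.52 (24.5 and 6.60). RpL11, the other protein that joins RpL5 on the 5S rRNA, was bound at 251 (89.0 and 163). RpL40 and RpS27A, both made as fusions to ubiquitin, were unbound at 18.9 (23.8 and 5.31) and 10.8 (3.98 and 14.4). These genes were picked for their roles after their values were seen.

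Several ribosomal proteins are encoded by more than 1 gene, and in some sets CG8478-eGFP was found at some copies and not at others. The 92 genes hold 12 sets with 25 members, formed from symbols that differ only in a final a or b, -1 or -2, or -like. The symbol alone does not show that a gene ending in -like encodes the same protein. In 4 sets every copy was bound, in 7 some were, and in 1 none was. Whether more sets split than the share of 54.3% bound over the 92 genes would give was not tested. As single genes, 16 of the 25 copies were bound (64.0%, 44.5 to 79.8) and 34 of the 67 others (50.7%, 39.1 to 62.3), a difference of single minus duplicated genes of -13.3 points (-32.9 to 9.42).

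**Figure D2:**
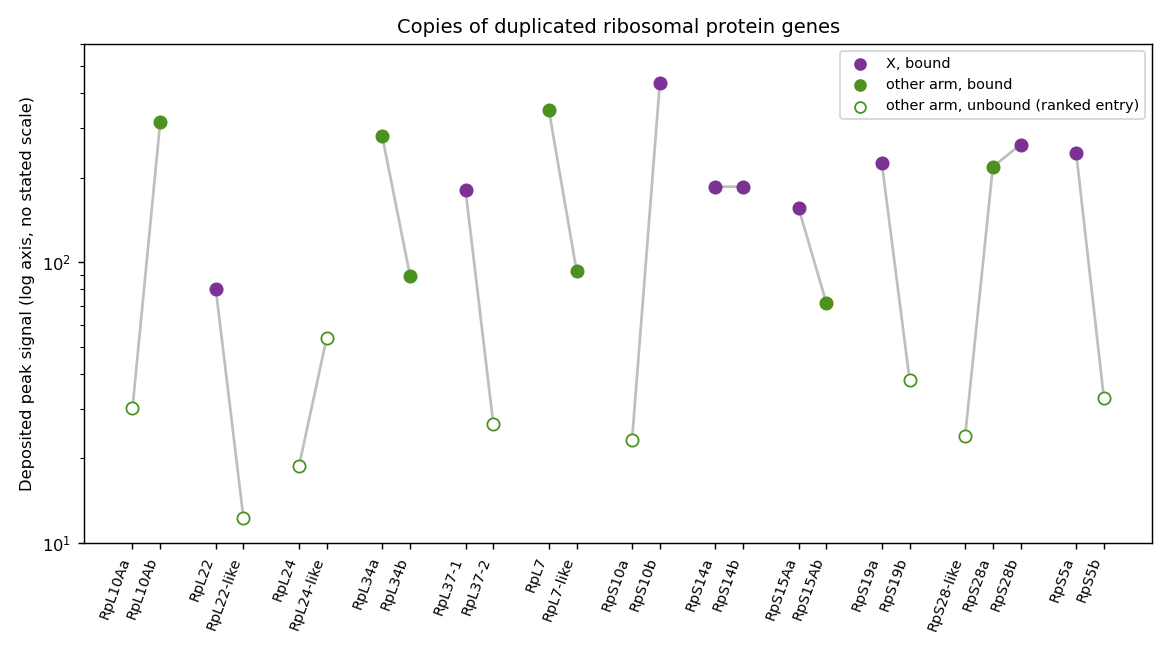
Deposited peak signal (log axis, no stated scale) of each copy in the 12 sets of duplicated genes. Filled points are bound and open points unbound, with the highest ranked entry, and purple marks the X chromosome. All 9 copies on X are filled, from 80.6 for RpL22 to 435 for RpS10b.

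In the split sets the bound copies had higher signals than the unbound ones, which largely follows from the threshold that made the split. RpL10Ab had a signal of 317 with inputs of 148 and 179, while its copy RpL10Aa had a ranked entry of 30.2 with 6.43 and 24.3. RpS10b had 435, and RpS10a 23.3 (10.6 and 13.1). For both proteins the values of the bound copy were also higher in each replicate, but the same replicates set the threshold. The sequences above show DRE cores at the bound copies alone.

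RpS5a had 246 (133 and 113) and RpS5b 32.9 (17.9 and 15.6). RpS19a had 225 (88.5 and 130) and RpS19b 38.1 (12.4 and 30.9), although the RpS19a summit lay 462 bp upstream, nearer to the start site of Rok. RpL22 had 80.6 (26.9 and 56.1), and RpL22-like 12.2 (4.40 and 7.0).

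RpL37-1 had 181 (70.6 and 113) and RpL37-2 had 26.5 (14.2 and 18.4), although both promoters hold 1 DRE core. RpS28b had 263 (125 and 141) and RpS28a 219 (114.5 and 98.2), while RpS28-like had 24.0 (18.4 and 12.7). The RpS28a summit lay 339 bp downstream of its start site and nearest to that of Mgat2, so it cannot be assigned to RpS28a from its position. Neither RpL24 (18.8, with 3.16 and 10.2) nor RpL24-like (53.9, with 30.3 and 22.7) was bound.

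In 4 sets every copy was bound. RpS14a and RpS14b, tandem genes with start sites 1156 bp apart on X, had separate peaks of nearly equal signal, 185.9 (85.0 and 92.0) and 186.2 (89.7 and 94.4). Only RpS14a has a DRE core. RpL34a had 281 (158 and 130) and RpL34b 89.6 (50.8 and 43.9), and RpS15Aa had 156 (52.6 and 103) against 71.7 for RpS15Ab. The RpL34a summit was nearest to the start site of Trmt61 (81 bp, against 148 bp) and the RpS15Ab summit to that of Lsm10 (10 bp, against 46 bp), and with each summit given to the nearest start site only, every copy was bound in 2 sets. RpL7 had 350.1 (130 and 219) and RpL7-like, a relative of a yeast ribosome assembly factor, 93.4 (53.5 and 48.6). No pair of copies in any set shared a run of 25 bases from 250 bp before to 50 bp after the start site, so the promoters of copies differ in sequence. How reads were placed within the transcribed parts of the copies is not given in the sources used here.

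Ribosomal protein genes on X were bound more often than those elsewhere. Of 15 genes on X, 13 were bound (86.7%, 62.1 to 96.3), and 28.7% of all protein-coding genes on X were. On the other arms 37 of 77 were bound (48.1%, 37.3 to 59.0), and 21.4% of all protein-coding genes there. The difference was 38.6 points (11.7 to 53.1). The comparison by arm was chosen after the values were seen. Only sta and RpL7A were unbound on X.

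The X genes were bound more often but not more strongly, with a median signal of 186 (71.1 to 435) against 237 (57.1 to 1288) for the 37 bound genes on other arms. The difference by arm was wide among copies of duplicated genes, where all 9 on X were bound and 7 of 16 elsewhere (56.3 points, 18.5 to 76.9). Among single genes it was 4 of 6 on X, namely RpL17, RpL35, RpL36 and RpS6, against 30 of 61 (17.5 points, -21.2 to 44.1). DRE cores were also more frequent on X, in 8 of 15 promoters (53.3%) against 29 of 77 (37.7%), and over all protein-coding genes in 30.8% on X against 21.6% elsewhere. With a core, 8 of 8 genes on X and 24 of 29 elsewhere were bound. Without one, 5 of 7 on X and 13 of 48 elsewhere were bound. Over all protein-coding genes, 61.7% with a core were bound on X and 55.5% elsewhere, and without one, 14.02% and 12.02%. The part of core frequency and of duplication in the difference by arm was not tested. On the remaining arms, 7 of 19 genes were bound on 2L and 11 of 20 on 2R. On 3L 9 of 14 were bound and on 3R 10 of 23. RpS3A, the only ribosomal protein gene on 4, was unbound. Of all protein-coding genes, 20.9% were bound on 2L, 22.5% on 2R, 19.97% on 3L, 22.4% on 3R and 13.75% on 4.

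The bound promoters held the DRE and the related letters CGATA more often than the unbound ones. Motifs were searched on both strands from 250 bp before to 50 bp after the start site shared by most transcripts. A match is a description of the letters, not a binding site. The full DRE TATCGATA was held by 26 of 50 bound promoters (52.0%) and 2 of 42 unbound ones (4.76%), against 9.24% of all protein-coding genes, and bound minus unbound was 47.2 points (29.8 to 60.9). Its core ATCGAT was held by 32 of 50 (64.0%) and 5 of 42 (11.9%), against 23.1%, a difference of 52.1 points (33.0 to 65.7). The BEAF-32 letters CGATA, which every full DRE contains, were held by 92.0% and 50%, against 47.5%, a difference of 42 points (23.9 to 57.3). For CGATA the difference was 52.7 points within 100 bp on either side of the start site, above that of the core (50.5) and of the full DRE (43.2), and 15.05 points (1.95 to 29.6) within 500 bp.

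**Figure D3:**
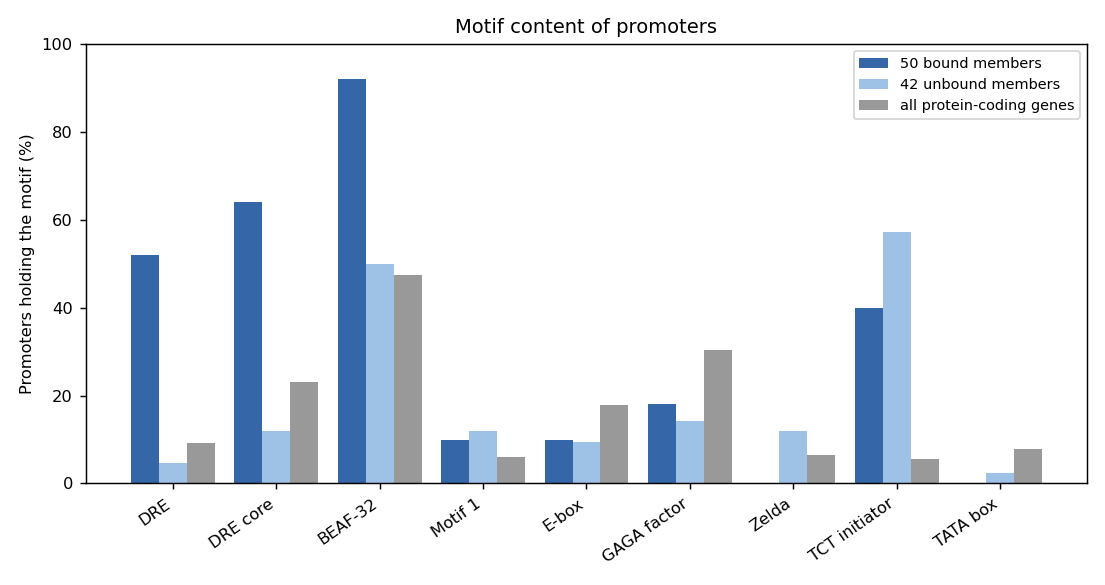
Share of promoters (in percent, bars from 0) that hold each of 9 motifs, among bound members, unbound members and all protein-coding genes. The bars for the DRE core stand at 64.0%, 11.9% and 23.1%, and those for the TCT initiator at 40%, 57.1% and 5.63%.

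The other 6 motifs differed less between the groups in this window. The TCT initiator, CTTT on the sense strand beginning within 5 bp of the start site, was held by 40% of bound and 57.1% of unbound promoters, against 5.63% of all protein-coding genes, and the difference of -17.1 points had an interval of -35.6 to 3.21. The interval lay below 0 without replicate 1 (-21.6 points, -39.6 to -1.21) and without the genes ending in -like (-22.8 points, -41.1 to -1.79). It depends on the annotated start site, and a start annotated some bases away loses the match. Motif 1, GGTCACACT, was held by 10% and 11.9%, against 6.06%. The E-box CAGCTG was held by 10% and 9.52%, against 17.8%, and the GAGA factor letters GAGAG by 18% and 14.3%, against 30.3%.

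The letters CAGGTA of Zelda, the activator of the early embryonic genome, were in 0 of 50 bound and 5 of 42 unbound promoters (-11.9 points, -25.0 to -2.11), against 6.38%. This interval included 0 with windows of 100 bp (-4.76 points, -15.8 to 3.16) or 500 bp (-28.4 to 6.69) on either side of the start site, without replicate 1 (-7.01 points, -19.2 to 3.38) and with RpL13A counted as bound (-20.7 to 2.42). A TATA box, TATAAA beginning 40 to 20 bp upstream on the sense strand, was in 0 of 50 and 1 of 42, against 7.85%. GC content was similar, with medians of 38.2% over the bound promoters, 36.0% over the unbound and 38.2% over all protein-coding genes.

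Read the other way, most ribosomal protein genes with a DRE core were bound. Of 37 with a core 32 were bound (86.5%, 72.0 to 94.1), and of all protein-coding genes with a core 56.8%. Of 55 without one 18 were bound (32.7%, 21.8 to 45.9), and of all protein-coding genes without one 12.3%. The share was thus above that of all genes in both classes. The mitochondrial ribosomal protein genes were bound in 20 of 27 cases with a core (74.1%, 55.3 to 86.8) and in 12 of 46 without (26.1%, 15.6 to 40.3), shares whose intervals overlap those of the cytoplasmic set. Both subunits showed the pattern, with 16 of 20 large and 16 of 17 small subunit genes bound among those with a core, against 12 of 33 and 6 of 22 without.

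The number of cores went with the share bound and with the median signal of each class. With 1 core 19 of 24 genes were bound, with a median signal of 186. That class also held the strongest peak of the group, at RpL32 (1288), and the next, at RpL26 (743). All 9 genes with 2 cores were bound, among them RpL19, RpL34a, RpL36A, RpS10b, RpS12, RpS13, RpS2 and RpS28b, with a median of 324. All 4 genes with 3 or more cores were bound, RpS7, RpS24, RpS30 and RpS15Ab, with a median of 540 that leaves RpS15Ab far below the others at 71.7. Without a core the 18 bound genes had a median of 127 (57.1 to 385), against 272 (71.7 to 1288) over the 32 with one, and the ranges overlap. Over all protein-coding genes the bound share also went up with the cores, from 12.3% with none to 46.5% with 1, 78.6% with 2 and 91.6% with 3 or more.

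**Figure D4:**
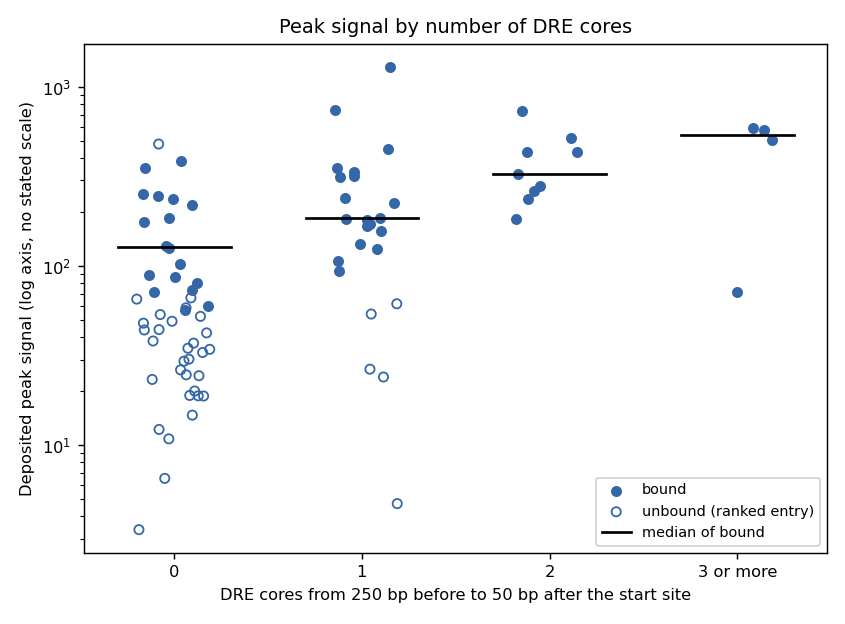
Deposited peak signal (log axis, no stated scale) of each gene by the number of DRE cores in its promoter, with small sideways scatter. Filled points are bound, open points are the highest ranked entry of unbound genes, and black lines mark medians of the bound genes at 127, 186, 324 and 540. The only unbound genes with a core are in the class with 1 core.

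The 5 unbound genes with a core were RpL12, RpL24-like, RpL37-2, RpL39 and RpS28-like. Their cores lay at a median of 44 bp upstream of the start site, against 55 bp in the 32 bound promoters, and the ranges of both overlap (from 169 bp upstream to 25 bp downstream, and from 249 bp upstream to 16 bp downstream). Of these, RpL39 had a ranked entry of only 4.72 (5.86 and 12.8). Bound genes without a core included RpS23, a protein of the decoding centre, at 385 (179 and 212), RpL7 at 350.1 and RpL11 at 251. Without a core means none from 250 bp before to 50 bp after the start site shared by most transcripts. Some of these 18 genes held one elsewhere within 500 bp of the summit, with its centre 6.5 bp from the summit at RpLP2 and 8.5 bp at RpS28a. The letters CGATA without the core were in 31 genes, 14 of them bound (45.2%), against 19.8% of all protein-coding genes of that kind. Of the 24 with neither, 4 were bound, RpL8 (129), RpL30 (125), RpL23A (103) and RpL34b (89.6), against 8.17% of all protein-coding genes. RpL8 and RpL23A held a core outside that window but within 500 bp of the summit.

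A core with a TCT initiator and a core without one went with binding to a like extent, in 13 of 15 and 19 of 22 genes. A TCT initiator without a core was bound in 7 of 29 genes, and neither element in 11 of 26. Of all protein-coding genes without a core 12.3% were bound, and of those with one 56.8%. With the initiator 22.0% of all protein-coding genes were bound, and without it 22.6%. The initiator was sought only at the start site shared by most transcripts. RpS6, RpS24 and RpL28 are among the genes with both, and RpS2 and RpS7 among those with the core alone. RpL3, RpL4, RpL5 and RpS3 are among the unbound genes with the initiator alone. RpL32 was counted with the core alone, but its sequence above also holds CTTT within 5 bp of another annotated start site.

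Counted at the summits and not at the start sites, the same letters led. In windows of 100 bp on either side of the summit, the 8-mer held by most bound genes was TATCGATA, in 24 of 50 windows, against 2 of the 42 windows centred on the unbound start sites and 7.74% of all protein-coding start sites. ATCGATAG was in 22 (7.14% of all protein-coding start sites), AACTATCG in 16 (2.88%), and ATCGATAA (6.36%) and GCTATCGA (4.02%) in 13 each. Of the 42 unbound windows, ATCGATAA was in 3, and ATCGATAG, AACTATCG and GCTATCGA in 1 each. These 8-mers overlap the DRE and one another, and the 5 were chosen as the most frequent, so their counts are a description. The core was in 32 of these 50 windows, and within 25 bp of the summit in 15. These are not the same 32 genes as those with a core in the promoter, since RpLP2 and RpS28a are among them. Where a core lay within 500 bp, in 40 of 50, its median position was 10 bp downstream of the summit.

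Summits lay just upstream of the start sites. The median distance to the gene's nearest annotated start site was 63 bp upstream, with 45 summits upstream and 5 downstream, and 32 within 100 bp. The start site shared by most transcripts, used for the cores, can be another one. The RpS16 and RpL35 summits, counted as upstream, lay downstream of that one, and for RpL26 and RpS15Aa it was the reverse. Over all 3152 bound protein-coding genes the median was 59 bp upstream. By the annotation, 41 summits lay between transcripts, 7 in a 5' UTR and 2 in an intron. Of the bound genes 7 had a summit over 150 bp away, among them RpLP2, RpS19a, RpS28a, RpL6 (217 bp upstream), RpS10b (154 bp) and RpL13 (151 bp).

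Many of the peaks were shared with a neighbour, so that the gene they serve cannot be told apart by position. At 22 of the 50 genes the summit also lay within 500 bp of the start site of another protein-coding gene, on the opposite strand in 21. Among the strongest such genes were RpL32 with CG7943, RpS13 with CSN8 (a subunit of the COP9 signalosome), RpS6 with bys (bystin, a small subunit assembly factor), RpL7 with Ripalpha and RpL41 with NaCP60E. RpS25 with CG4820, RpL34a with Trmt61 (a tRNA methyltransferase subunit), RpL36 with Mybbp1A (a nucleolar protein) and RpL31 with CG12929 followed. At 9 genes the summit was nearest to the other gene, and 41 were bound without those.

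RpL13 shares its peak with Dref, the gene for the DRE-binding factor, at 132 with inputs of 94.5 and 38.1, and the summit was nearest to Dref. Bound genes without a shared peak included RpL26, RpS2, RpS7, RpS24 and RpS30. Of the 35 genes with a divergent neighbour starting within 500 bp, 20 were bound (57.1%), and of the 57 without, 30 (52.6%), a difference of 4.51 points (-15.9 to 24.1). Many ribosomal protein genes carry small nucleolar RNAs in their introns, and 16 of 29 such genes were bound (55.2%), against 34 of 63 others (54.0%), a difference of 1.20 points (-19.96 to 21.6).

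The replicates gave like values at the bound genes. Input 1 of the ranked list holds entries of replicate 1's own list and input 2 entries of replicate 2's. Of the 50 genes 22 were higher in replicate 1 and 28 in replicate 2, and 47 were within 2-fold. The 3 others were RpL13, higher in replicate 1, and RpL31 (72.4 and 174) and RpL22 (26.9 and 56.1), higher in replicate 2. Across the 50 genes the inputs gave a Spearman's rho of 0.875 and, after log2, a Pearson's r of 0.893. These are descriptions over genes that share the 2 libraries and were kept in the list because their ranks repeat. Of the 50 peaks, 42 had an overlapping entry in the own list of each replicate, 2 in replicate 1's only, 3 in replicate 2's only and 3 in neither.

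**Figure D5:**
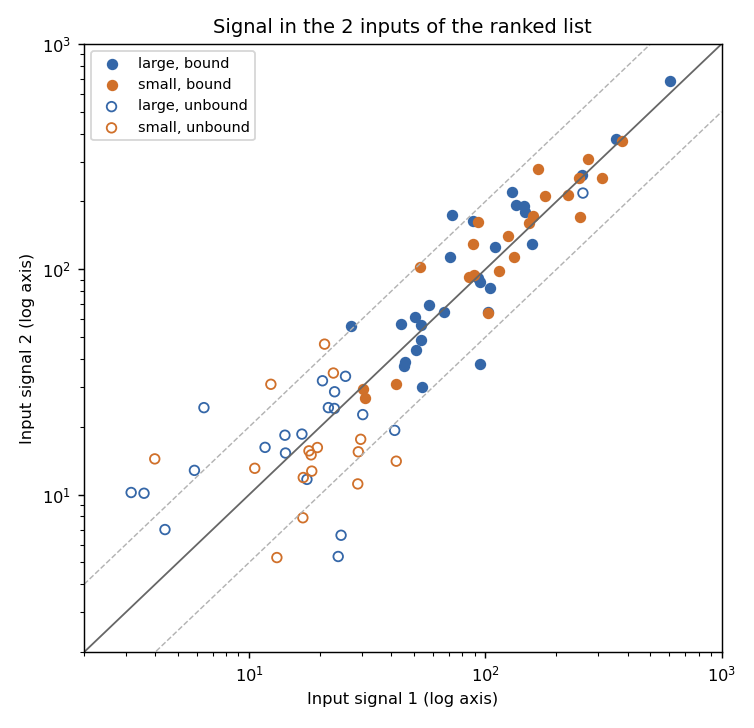
Signal of each gene in input 1 (replicate 1) against input 2 (replicate 2) of the ranked list, on log axes with no stated scale, with the line of equal values and dashed lines at 2-fold. Filled points are the 50 bound genes, of which 47 lie within the dashed lines, and open points are the 36 unbound genes with an entry.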

How the data were processed

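ChIP-seq peak lists of 2 biological replicates were analysed, with dm6 coordinates, per the file headers. The signal of a peak is used as deposited by the authors, with no stated scale, and the ranked list holds the −log10 of the global IDR as deposited by the authors. Which aligner and peak caller were run is not given in the sources used here. Chromatin fragments of 200 to 800 bp were used, per the labels.

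Identical intervals were merged, at the higher signal, on 7 main arms, which left 2904 conservative, 3101 optimal, 2520 replicate 1 and 2225 replicate 2 peaks. The annotation was Ensembl release 115, and sequence was read from RefSeq Release 6. Scripts ran in Python 3.11.15 with pandas 2.3.3, NumPy 2.4.6, statsmodels 0.14.6, SciPy 1.17.1 and matplotlib 3.10.9, and were tested on simulated data. Shares have 95% Wilson intervals, and differences of shares Newcombe intervals. With 1 group there is no comparison of conditions, and no test over the gene list was made.

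The members, lists and motifs were chosen with earlier results of these data known. Named genes were the 10 strongest and 5 weakest bound genes, all copies, the stalk genes and sta, the 5 unbound genes highest in the ranked list and those with no entry there, up to 10 genes sharing a peak and those with a summit over 150 bp away. Others were named after their values were seen. Of the genes this rule names, 1 is counted in the totals and not reported here by name. Alternatives were the other lists, each replicate's own list, the upper 50% of peaks, windows of 250 and 1000 bp, other assignments to start sites, other motif windows and members without -like symbols.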

Additional observations from a re-analysis of the deposited data

How the results depend on the processing

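The count of bound genes ran from 37 (upper 50% of peaks) to 54 (within 1000 bp), and the large subunit share fell to 34.0% in the upper 50% of peaks. Of all protein-coding genes, 14.01% were bound in the upper 50% of peaks and 24.8% within 1000 bp. Within 250 bp 47 ribosomal protein genes were bound, against 19.8% of all protein-coding genes, and by nearest start site 42, against 16.2%. Without a replicate 44 to 48 ribosomal protein genes were bound. Large minus small ran from -14.8 points (upper 50% of peaks) to 4.64 (optimal list), and was 1.55 without replicate 1; all its intervals include 0. X minus other arms ran from 30.5 to 44.0 points and the DRE core difference from 46.6 to 58.0. The CGATA difference was 15.05 points within 500 bp on either side and 52.7 within 100 bp. The intervals for Zelda and the TCT initiator changed their side of 0, as given beside them. The median signal of 222 was 203 in the optimal list, 237 within 250 bp and 186 within 1000 bp; 107 to 120 in the replicates' own lists are on another scale. Every copy was bound in 2 sets where each summit went to the nearest start site only. No copy was bound in 0 sets in the optimal list, 2 within 250 bp, 2 by nearest start site, and 1 to 2 without a replicate. No direction reversed among results whose interval lay on 1 side of 0. Alternatives chosen after seeing the data were every listed summit kept (50 bound), the RpL13A entry counted (51), genes whose peak is nearest to another gene left out (41), the sets of copies in the replicates' lists and by nearest start site, and X minus other arms throughout. Depth is unknown, so a gene called unbound may lie under the detection limit of these lists.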
